A study of Homo sapiens with 3 samples.

Results

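The wide peaks of histone H2A acetylated at lysine 130 (H2AK130ac) were mapped by chromatin immunoprecipitation and sequencing in UM-UC-3, an established cell line from a human bladder carcinoma. Wide peaks were chosen by their width, the listed end minus the listed start, with a minimum of 500 bp and no other criterion; peaks under 500 bp of the same list are called narrow. The smoke library came from cells labelled with cigarette smoke treatment, given as cigarette smoke media (10%) for 3 days, and the air library from cells labelled air. There was 1 library per group, both immunoprecipitated with an antibody to H2AK130ac, and the treatment text of the smoke cells also stands on the air sample, so the groups rest on the treatment label. Wide peaks made up 793 of 23975 peaks in smoke and 2021 of 27010 in air, 2814 of 50985 in all. Positions are in hg38, and genes are named from the RefSeq gene table of GRCh38.p14.

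Lysine 130 lies in the C-terminal tail of H2A, a histone whose dimers with H2B form part of the core of the nucleosome. Acetyl groups on histone tails take away the positive charge of lysine and can be read by bromodomain proteins. For better-known acetyl marks, peaks are strongest and widest at active promoters and enhancers, so width, start sites and overlap between libraries are the usual readouts of such a map.

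Few peaks lay over annotated promoters, wide or narrow. The wide ones that did are shown first because they are the part of the set that can be tied to a gene's start. The promoter windows used run from 250 bases before to 50 bases after a start site (34961 windows of 27195 genes). Narrow peaks touched 97 windows in smoke (23182 peaks) and 117 in air (24989 peaks). A wider peak meets more windows by its width alone. Wide peaks touched 11 windows in smoke (793 peaks) and 12 in air (2021 peaks), and covered 5 whole windows in each. Of these, the 5 that belong to protein-coding genes (smoke 4, air 1) are printed 5′ to 3′ on the strand of the gene, from RefSeq, build GRCh38.p14. Capitals mark matches on either strand to the TATA box (TATAAA), the CCAAT box (CCAAT) and the GC box (GGGCGG); no 2 of these matches overlap.
KIF20A (smoke, chr5:138178862-138179161, + strand): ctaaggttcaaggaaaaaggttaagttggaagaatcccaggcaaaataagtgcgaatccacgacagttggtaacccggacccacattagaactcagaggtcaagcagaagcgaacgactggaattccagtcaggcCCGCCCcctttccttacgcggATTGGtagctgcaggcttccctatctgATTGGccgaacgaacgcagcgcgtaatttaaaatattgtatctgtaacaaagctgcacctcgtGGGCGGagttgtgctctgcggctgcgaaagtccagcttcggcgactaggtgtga
FNTB (smoke, chr14:64986645-64986944, + strand): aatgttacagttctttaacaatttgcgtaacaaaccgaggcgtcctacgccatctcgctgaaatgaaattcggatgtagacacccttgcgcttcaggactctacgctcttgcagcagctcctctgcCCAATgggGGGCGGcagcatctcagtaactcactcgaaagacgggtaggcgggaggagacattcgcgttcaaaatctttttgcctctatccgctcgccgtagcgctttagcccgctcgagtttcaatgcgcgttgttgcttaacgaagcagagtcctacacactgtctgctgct
TAAR5 (smoke, chr6:132616698-132616997, - strand): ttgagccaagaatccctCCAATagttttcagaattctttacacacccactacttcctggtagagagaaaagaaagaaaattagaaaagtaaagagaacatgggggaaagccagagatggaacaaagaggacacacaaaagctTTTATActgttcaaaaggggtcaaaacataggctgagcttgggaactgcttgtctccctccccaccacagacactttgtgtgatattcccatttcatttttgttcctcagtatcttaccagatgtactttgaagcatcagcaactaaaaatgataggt
DZIP1L (smoke, chr3:138113431-138113730, - strand): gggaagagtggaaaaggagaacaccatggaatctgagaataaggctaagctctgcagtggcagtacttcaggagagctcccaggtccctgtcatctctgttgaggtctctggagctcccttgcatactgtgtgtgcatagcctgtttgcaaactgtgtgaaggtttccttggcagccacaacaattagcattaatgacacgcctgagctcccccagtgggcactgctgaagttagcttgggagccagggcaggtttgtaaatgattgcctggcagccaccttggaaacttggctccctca
PPP4R3A (air, chr14:91510261-91510560, - strand): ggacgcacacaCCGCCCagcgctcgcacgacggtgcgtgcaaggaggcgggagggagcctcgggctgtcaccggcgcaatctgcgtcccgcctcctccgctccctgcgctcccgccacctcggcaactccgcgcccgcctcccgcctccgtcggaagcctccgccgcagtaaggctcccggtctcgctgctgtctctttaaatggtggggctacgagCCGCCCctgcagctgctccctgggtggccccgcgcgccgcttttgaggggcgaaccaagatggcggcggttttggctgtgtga

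The 5 windows differed widely in base composition. KIF20A, a mitotic kinesin, had 19 CpG in its 300 bases, and FNTB, the beta subunit of the protein farnesyltransferase, had 23. PPP4R3A, a regulatory subunit of protein phosphatase 4, had 36 CpG and a GC content of 71%. TAAR5, a trace amine receptor of the olfactory epithelium, had 0 CpG at 40% GC, and DZIP1L, a protein of the primary cilium, had 1 CpG at 52% GC. TAAR5 held a match to the TATA box, on the strand opposite to the gene, and 1 to the CCAAT box. KIF20A held 2 CCAAT and 2 GC box matches, FNTB 1 of each of these, PPP4R3A 2 GC box matches and DZIP1L none of the 3. Whether any match acts as a promoter element was not tested. Over all 34961 windows, 11.5% held TATAAA, 34.6% CCAAT and 45.0% GGGCGG. Median GC was 52% over the 11 windows touched by wide smoke peaks and 50.3% over the 97 touched by narrow ones, and 44.3% over the 12 touched by wide air peaks and 51.3% over the 117 touched by narrow ones, against 58.7% over all windows. A GC content over 60% was found in 4 of the 11 smoke windows and 2 of the 12 air windows, against 26.8% of windows under narrow smoke peaks, 29.9% of those under narrow air peaks and 46.0% of all windows. The 2 air windows both belong to PPP4R3A and lay under 1 peak. Among the 4 smoke windows, those of CYP39A1 and SLC25A27 overlap and lay under 1 peak, so windows are not separate units. With so few windows these shares are a description of the set.

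The share of wide peaks was lower in smoke than in air. It was 3.31% in smoke (95% Wilson interval 3.09 to 3.54) and 7.48% in air (7.17 to 7.80), a ratio of smoke over air of 0.442 (0.408 to 0.479). Wide peaks covered 0.468 Mb in smoke, 7.70% of the listed bases, and 1.22 Mb in air, 14.7% of them. Median width among them was 560 bp in smoke and 570 bp in air, and the widest peak measured 1214 bp in smoke and 1173 bp in air. At 800 bp or more there were 30 peaks in smoke and 117 in air, and at 1000 bp or more 5 and 9. The narrowest peak was 150 bp in both lists. All intervals here cover counting error only, and with 1 library per group no difference between smoke and air has a replicate check. Read depth is unknown, and its part in the difference in width was not tested.

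**Figure D1:**
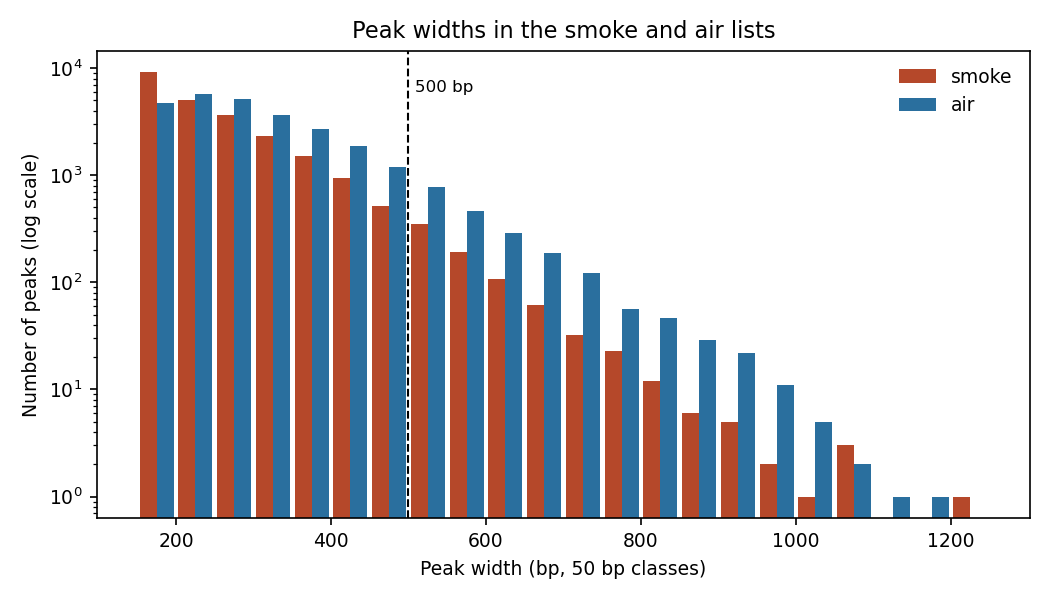
Number of peaks (y axis, log scale) in 50 bp classes of peak width (x axis), smoke bars left of air bars, with a dashed line at 500 bp. Smoke has more peaks in the narrowest class and air more in every class from 200 to 1000 bp; 793 smoke and 2021 air peaks lie at or above the line.

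By the authors' median −log10 q, wide peaks ran somewhat above narrow ones in smoke and below them in air. The authors' fold enrichment and significance come from the same signal as the width, so they are given as a description. The authors' median fold was 3.76 in wide and 3.76 in narrow smoke peaks, and 3.65 in wide against 3.95 in narrow air peaks. The authors' median −log10 q was 1.34 in wide and 1.24 in narrow smoke peaks, and 1.34 in wide against 1.502 in narrow air peaks. A q of 0.05 or lower was listed for 52.1% of wide and 44.1% of narrow smoke peaks, and for 54.3% of wide and 60.9% of narrow air peaks. A −log10 q of at least 2 was listed for 17.3% of both wide and narrow smoke peaks, so the smoke excess was not seen there. In air it was listed for 20.8% of wide and 25.4% of narrow peaks. The highest −log10 q was 4.18 among wide and 65.8 among narrow smoke peaks, and 5.21 among wide and 8.23 among narrow air peaks. Narrow peaks are far more numerous in both lists, which favours a higher maximum among them. The wide peak of highest −log10 q lay on chromosome 20 in both lists. In smoke it was 545 bp wide, 21.9 kb from ZNF831, a zinc finger gene, and in air it was 505 bp wide, 47.4 kb from FAM210B, a mitochondrial protein gene of erythroid cells.

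Just inside the threshold, at 500 to 509 bp, 64 smoke peaks had a median fold of 3.82 and 177 air peaks one of 3.60. Just outside it, at 490 to 499 bp, 75 smoke peaks had a median of 3.76 and 200 air peaks one of 3.65. The summit, the point of highest signal, lay in the outer 25% at either end of the peak for 57.6% of wide and 21.5% of narrow smoke peaks, and for 58.6% of wide and 20.6% of narrow air peaks. The median distance from summit to the nearer edge was 128 bp in wide and 77 bp in narrow smoke peaks, and 130 bp against 93 bp in air. The median distance to the farther edge was 429 bp in wide and 134 bp in narrow smoke peaks, and 436 bp against 148 bp in air. In both libraries the summit of a wide peak lay off centre more often than that of a narrow one. The farther edge of a wider peak lies farther off by its width alone. Summit and width also come from the same signal, so these values are given as a description.

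Many peaks of a list shared the very same pair of fold and −log10 p, the commonest being a fold of 3.76 with 4.48 in smoke (5179 peaks) and 4.06 with 4.96 in air (4421 peaks). Pairs held by at least 100 peaks accounted for 58.5% of wide and 82.0% of narrow smoke peaks, and for 76.0% of wide and 76.1% of narrow air peaks. Among smoke peaks with rarer pairs 7.29% were wide (6.57 to 8.09), against 2.38% of those with common pairs (2.18 to 2.61). In air the same shares were 7.53% (6.91 to 8.19) and 7.47% (7.12 to 7.84). Among peaks with rarer pairs, the intervals of the smoke and air shares overlapped; among peaks with common pairs they lay far apart. How these pairs arose was not tested.

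The 10 widest smoke peaks, 914 to 1214 bp, lay inside a protein-coding gene in 4 cases. These were STK4, a kinase of the Hippo pathway (1078 bp), TTLL5, a tubulin glutamylase (1029 bp), MACROD2, which removes ADP-ribose from proteins (996 bp), and LIPA, the lysosomal acid lipase that frees fatty acids and cholesterol from lipoprotein lipids (930 bp). The widest of all, 1214 bp on chromosome 4 from 113847809 to 113849022, was 51.6 kb from ARSJ, an arylsulfatase gene. The others were nearest to ALG10B, a glucosyltransferase of N-glycan assembly (1084 bp, 319 kb away), PSAT1 of serine synthesis (1056 bp, 38.0 kb), TBC1D4, a Rab GTPase-activating protein of glucose transport (954 bp, 414 kb), LOC124905938 (918 bp, 29.7 kb) and BOD1, a chromosome alignment factor (914 bp, 71.9 kb). None of the 10 overlapped an air peak, where only 1.58% of the whole smoke list did. The authors' fold over them ran no higher than 4.87.

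The 10 widest air peaks, 992 to 1173 bp, lay inside a protein-coding gene in 3 cases. These were SLC25A21, a mitochondrial carrier of oxodicarboxylates (1173 bp), MYO16, an unconventional myosin (1042 bp), and AUTS2, a neurodevelopmental gene (1014 bp). A peak of 992 bp on chromosome 6, from 27793707 to 27794698, lay 13.6 kb from the histone gene H2BC13. The other 6 lay 164 to 974 kb from the nearest protein-coding genes, which were CALB1, a calcium-binding protein, CDH26, a cadherin, SDK2, a synaptic adhesion protein, ZHX2, a transcriptional repressor, DNAJB9, a chaperone of the endoplasmic reticulum, and DEPDC1, a mitotic gene. None of the 10 overlapped a smoke peak, where only 1.41% of the whole air list did. Of the 10 in each list, 4 in smoke and 3 in air were thus within protein-coding genes.

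Inside genes of any kind and inside protein-coding genes, the intervals of the differences between wide and narrow peaks included 0, while inside long noncoding RNA genes alone wide air peaks were more frequent than narrow ones beyond counting error. Peaks were placed by their summit, so that width does not enter. Of wide smoke peaks 56.9% lay inside any gene (53.4 to 60.3), against 57.8% of narrow ones, with 57.8% over the whole list. Of wide air peaks 59.2% did (57.1 to 61.4), against 57.9% of narrow ones, with 58% over the list. Inside a protein-coding gene lay 43.8% of wide and 42.6% of narrow smoke peaks (42.7% of the list), and 42.8% of wide and 43.3% of narrow air peaks (43.3% of the list). The intervals of these 4 differences included 0, and the widest of them ran from -2.36 to 4.65 percentage points for smoke peaks inside protein-coding genes. Another threshold brought intervals that left out 0 inside protein-coding genes, in smoke at 375 bp (2.11 points, 0.194 to 4.03) and in air at 750 bp (-8.65 points, -15.4 to -1.27). Inside long noncoding RNA genes and no protein-coding one lay 96 wide smoke peaks, 12.1% (10.02 to 14.6), against 14.002% of narrow ones (13.9% of the list), a difference of -1.90 points (-4.03 to 0.598). In air 318 wide peaks did, 15.7% (14.2 to 17.4), against 13.4% of narrow ones (13.6% of the list), a difference of 2.34 points (0.756 to 4.04). The air difference was 0.597 points (-0.438 to 1.68) at a threshold of 400 bp and 8.45 points (2.91 to 15.2) at 750 bp. Whether smoke and air differ in it was not tested. Outside protein-coding genes, the median distance to the nearest one was 85.4 kb for wide and 137 kb for narrow smoke peaks, but 141 kb for wide and 128 kb for narrow air peaks.

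At the ends of protein-coding genes wide smoke peaks were more frequent than narrow ones beyond counting error, while in air the interval of the difference included 0. Within 1 kb of such an end lay 22 wide smoke peaks, 2.77% of them (1.84 to 4.16), against 1.54% of narrow smoke peaks and 1.58% of the list. The difference was 1.23 percentage points (0.280 to 2.63). In air 41 wide peaks lay there, 2.03% (1.499 to 2.74), against 1.86% of narrow peaks and 1.87% of the list, a difference of 0.172 points (-0.386 to 0.901). For ends of any gene the counts were 52 wide smoke peaks, 6.56% against 4.95% of narrow ones (5.01% of the list), and 107 wide air peaks, 5.29% against 5.45% (5.44% of the list). The difference for any gene was 1.61 points in smoke (0.0565 to 3.57) and -0.156 points in air (-1.10 to 0.943). The smoke interval for any gene came to include 0 at 400 bp (-0.0812 to 1.94), for the widest 5% (-0.195 to 2.56) and within 500 bp of an end (-0.0976 to 2.62). The smoke difference at protein-coding ends was 1.20 points when narrow peaks were weighted to the same −log10 p as the wide ones. It was 0.302 points (-1.26 to 8.36) at a threshold of 750 bp, where 53 peaks remained. Whether smoke and air differ in this excess was not tested.

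At start sites the interval of the difference likewise left out 0 in smoke and included it in air. With strands known from the promoter table, 18 wide smoke peaks had their summit within 1 kb of a start site, 2.27% (1.44 to 3.56), against 1.31% of narrow ones and 1.34% of the list. In air 27 did, 1.34% (0.920 to 1.94), against 1.30% of narrow ones and 1.31% of the list. The difference was 0.963 points in smoke (0.119 to 2.26) and 0.0314 points in air (-0.410 to 0.647). When every smoke peak of 400 bp or more was taken as wide it was 0.290 points (-0.181 to 0.914). The 18 smoke peaks stood at 21 genes, 13 of them protein-coding, and the 27 air peaks at 29 genes, 17 of them protein-coding.

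Of the 18 smoke peaks, 3 had their summit between the start sites of a pair of genes on opposite strands. The widest, 884 bp, had its summit 142 bp from the start of KIF20A and 340 bp from that of BRD8, a bromodomain subunit of the TIP60 histone acetyltransferase complex. The second, 564 bp, was 42 bp from the start of SLC25A27, a mitochondrial uncoupling protein, and 115 bp from that of CYP39A1, an oxysterol hydroxylase of bile acid synthesis. The third, 565 bp, was 116 bp from the start of FNTB and 102 bp from that of the noncoding gene LOC107984655. In the first and second of these pairs the genes run away from each other, while FNTB and LOC107984655 overlap, so that the summit lay inside both. The peak nearest to a start was at ZNF573, a zinc finger gene, with its summit 2 bp away and a width of 514 bp. The authors' fold at these 4 peaks was 3.39, 3.26, 3.25 and 3.63, below the median of the list in each case. BRD8, SLC25A27, CYP39A1 and ZNF573 were picked once their values were known.

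By width, the 10 widest smoke peaks at protein-coding gene ends ran from 574 to 884 bp. After KIF20A came RBM17, a splicing factor (661 bp), AMIGO1, a neuronal adhesion protein (635 bp), RAB39A, a small GTPase (623 bp), CMAS, which activates sialic acid (614 bp), LOC124906109 (605 bp), URI1, a prefoldin-like chaperone (586 bp), MOB3B, a kinase activator (580 bp), ST8SIA1, the GD3 ganglioside synthase (576 bp), and ZMYND15, a transcriptional repressor of germ cells in mouse (574 bp). Of all 22 smoke peaks at such ends, 10 also lay within 1 kb of that gene's start site and 9 did not. For the other 3 the promoter table holds no start site. Among the 358 narrow smoke peaks at such ends the same counts were 140, 173 and 45.

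The corresponding air peaks ran from 656 to 908 bp. They were at CEP95, a centrosomal protein (908 bp), SLC39A14, a zinc and manganese transporter (827 bp), NPS, the neuropeptide S precursor (801 bp), BICC1, an RNA-binding protein (742 bp), FGGY, a carbohydrate kinase (688 bp), COL19A1, a collagen (686 bp), CWC15, a spliceosome subunit (671 bp), RBSN, an endosomal Rab effector (664 bp), JMY, an actin nucleator (657 bp), and EIF1AX, a translation initiation factor (656 bp). Of all 41 air peaks at such ends, 11 also lay within 1 kb of that gene's start site and 21 did not. For the other 9 the promoter table holds no start site. Among the 464 narrow air peaks at such ends the same counts were 153, 223 and 88. None of the genes in these sets of 10 was shared between smoke and air, but the sets are too small to compare. Of the 330 protein-coding genes with a wide smoke summit inside, 80 (24.2%) also had a wide air summit inside. No hairpin among the 1562 microRNAs searched lay under a wide peak in either library. Wide peaks covered only 0.468 Mb in smoke and 1.22 Mb in air, and no count for narrow peaks is given, so this is a description.

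**Figure D2:**
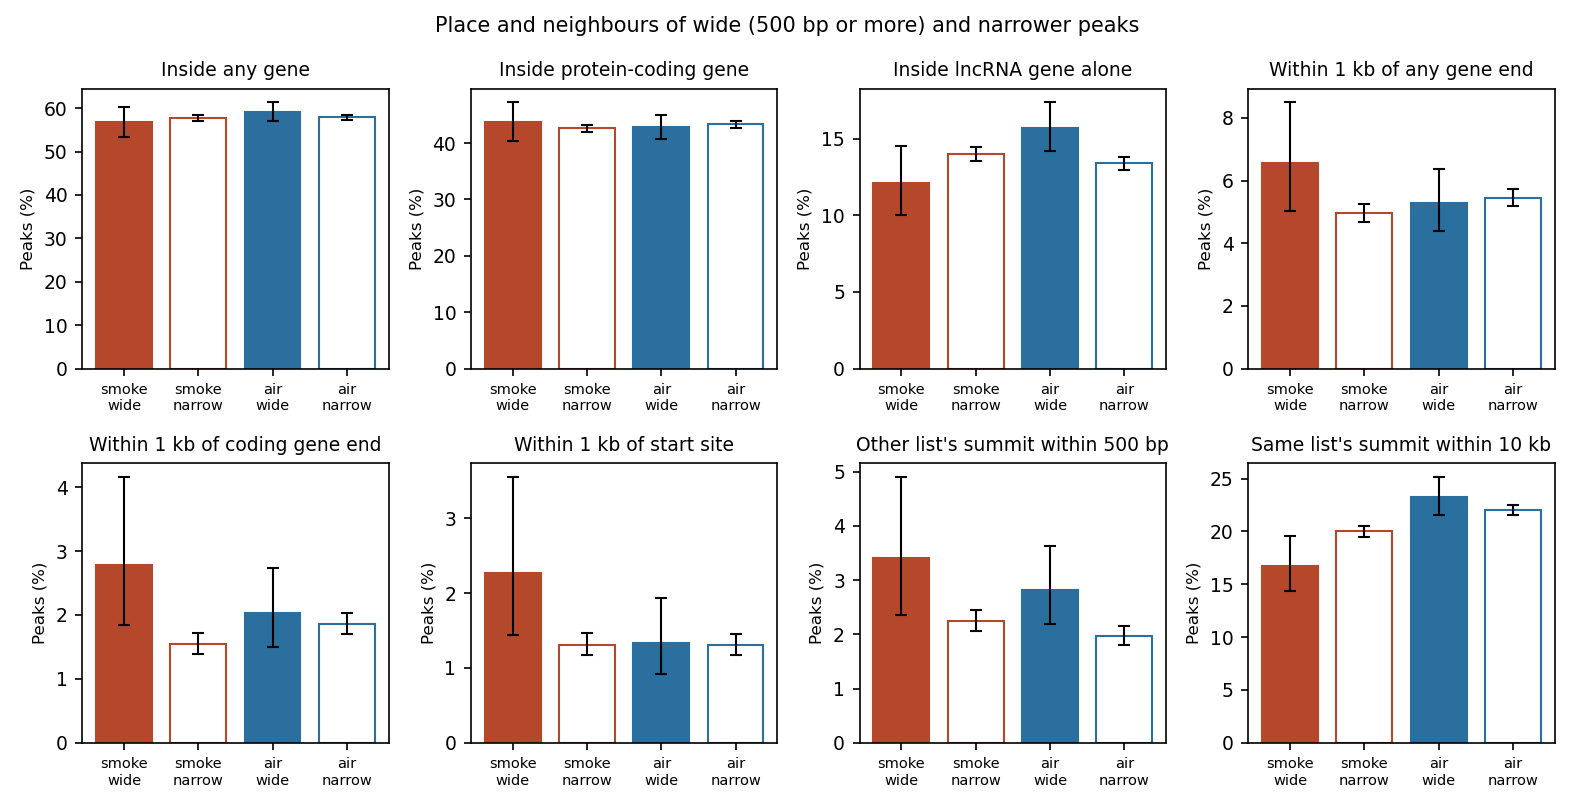
Percentage of wide (filled bars) and narrow (open bars) peaks at 8 kinds of place and neighbour (y axes, starting at 0), smoke left of air; lncRNA stands for long noncoding RNA, and error bars are 95% Wilson intervals. Bars for any gene and for protein-coding genes are close to level, while wide smoke peaks stand above narrow ones at protein-coding gene ends (2.77% against 1.54%) and start sites (2.27% against 1.31%).

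Genes that held a wide peak had a longer median than those that held a narrow one, but the numbers of peaks were very unlike. Narrow peaks had 4595 host genes in smoke and 4793 in air. The median length of hosts depends on the number of peaks, so it is given as a description. The 330 protein-coding genes with a wide smoke summit had a median length of 202 kb, against 105 kb for hosts of narrow peaks, and the 739 hosts in air had 186 kb, against 103 kb. Of the 19974 protein-coding genes, a wide peak lay over or within 1 kb of 1.75% in smoke and 3.84% in air. That share grew with length, up to 24.8% in smoke and 43.6% in air of the 314 genes over 500 kb. Per megabase of gene it varied far less, from 0.237 to 0.389 wide peaks in smoke and from 0.588 to 0.840 in air. Among peaks inside genes, the wide share was 3.96% in genes over 500 kb and 5.97% in genes of 20 kb or less in smoke, and 7.43% and 8.57% in air. It was lowest in genes of 20 to 100 kb, at 3.22% in smoke and 7.13% in air.

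**Figure D3:**
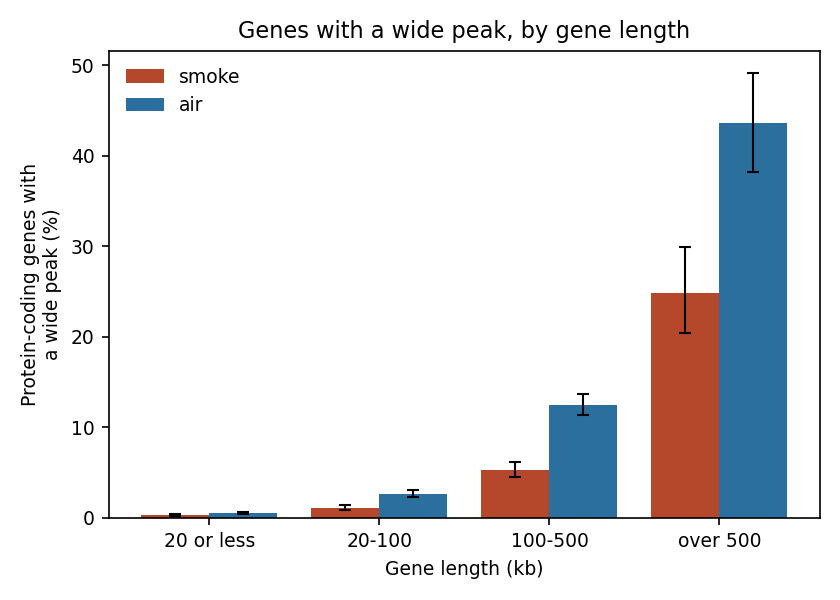
Percentage of protein-coding genes with a wide peak over them or within 1 kb (y axis, from 0) in 4 classes of gene length (x axis, kb), smoke left of air, with 95% Wilson intervals. Shares rise from 0.278% in smoke and 0.501% in air in the shortest class to 24.8% and 43.6% in genes over 500 kb.

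The genes with most wide peaks in smoke were MACROD2 with 4, DPYD, the first enzyme of pyrimidine breakdown, with 3, and DLG2, a postsynaptic scaffold, with 3. Another 22 genes tied at 2 each, of which SNX9, a sorting nexin, and LIPA held the most per megabase of gene. In air MACROD2 held 2, DPYD 1, DLG2 3, and SNX9 and LIPA none. LIPA and SNX9 were much shorter, at 201 kb and 122 kb, and each held 2 narrow peaks besides. First in air was CNTNAP2, a neurexin-like adhesion protein, with 5. It was followed by PCSK5, a proprotein convertase, SMYD3, a lysine methyltransferase, CDH12, a cadherin, and CSMD3, a giant membrane protein, with 4 each, the most per megabase among 5 genes tied at 4. CNTNAP2 held 2 wide peaks in smoke, and the other 4 held none there. All these counts are of 1 to 5 peaks in genes of up to 2304 kb.

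Gene lists differed widely in gene length, and those of very long genes held the most wide peaks. Of 17 large genes at common fragile sites, chromosomal regions that break under replication stress, 8 held a wide peak in smoke and 10 in air, or 47.1% and 58.8%, beside 1.75% and 3.84% of all protein-coding genes and 24.8% and 43.6% of those over 500 kb. Their median length was 1506 kb, and all 17 also held narrow peaks in both libraries. DLG2 held 3 in each library, MACROD2 held 4 in smoke and 2 in air, and CNTNAP2 held 2 in smoke and 5 in air. The widest was in MACROD2 in smoke (996 bp) and in CNTNAP2 in air (817 bp). Of 20 genes of synaptic adhesion and axon guidance, with a median length of 1034 kb, 5 held a wide peak in smoke and 11 in air. These are 25% and 55%, beside the same 24.8% and 43.6% of genes over 500 kb. Narrow peaks were held by 18 of them in smoke and 17 in air. The contactin genes CNTN5 and CNTN4 held 2 and 1 in smoke and 3 and 3 in air, and the cadherin gene CDH18 held 1 in air (934 bp) and none in smoke. The peaks of NRXN3, a neurexin, were 831 and 545 bp wide in smoke and 983, 841 and 560 bp in air. None of these overlapped between the libraries, where only 1.58% of all smoke and 1.41% of all air peaks did.

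Fatty acid synthesis is the pathway that the series title points to through its synthase gene. Of 25 genes of it, 1 held a wide peak in smoke (4%, beside 1.75% of all protein-coding genes) and 2 in air (8%, beside 3.84%). HSD17B12, the ketoacyl reductase of fatty acid elongation, held 1 in each, of 528 bp in smoke (fold 4.78) and 506 bp in air (fold 4.69), at different places in the gene. ACACA, the acetyl-CoA carboxylase that supplies malonyl-CoA, held 1 of 526 bp in air (fold 2.90) and none in smoke. Lipid uptake and storage had 0 of 27 genes in smoke and 3 in air (11.1%), or 2 in air when the summit had to lie inside the gene. These were GPAM, the first enzyme of glycerolipid synthesis (556 bp), LPIN2, a phosphatidate phosphatase (522 bp), and PLIN3, a lipid droplet coat protein (611 bp). Fatty acid oxidation had 0 of 26 genes in both libraries.

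In the other lists given here the counts were 0 in smoke throughout. Antioxidant response had 1 of 16 genes in air, SOD1, the cytosolic superoxide dismutase (503 bp). Neuronal markers had 1 of 5 in air, the splicing factor gene RBFOX3 (558 bp). Xenobiotic response, histone acetylation, and luminal, basal and blood cell markers had none in air either, of 21, 28, 8, 5 and 4 genes. In lists of this size a background of 1.75% in smoke and 3.84% in air comes to about 1 gene or fewer, and the counts of 0 to 3 in these pathway and marker lists are a description. Wide peaks at marker genes were too few to describe the labelled cell type.

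Chromosome 20 was where wide smoke peaks stood out. Of its 445 smoke peaks 41 were wide, 9.21% (6.86 to 12.3), against 3.20% on all other chromosomes, a ratio of 2.88 (2.14 to 3.89). In air 39 of 448 were wide, 8.71% (6.43 to 11.7), against 7.46% elsewhere, a ratio of 1.17 (0.862 to 1.58). The share in smoke over that in air was 1.06 on chromosome 20 (0.697 to 1.61) and ran from 0.177 to 0.658 on the other 22 chromosomes.

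Peaks of chromosome 20 also carried other values than the rest. Pairs of fold and −log10 p held by at least 100 peaks made up 27.0% of its smoke peaks and 31.5% of its air peaks, the lowest share of any chromosome in both lists. Among smoke peaks with rarer pairs, 30 of 325 on chromosome 20 were wide (9.23%), against 7.14% elsewhere, a ratio of 1.29 (0.903 to 1.85). Among smoke peaks with common pairs, 11 of 120 were wide (9.17%), against 2.34% elsewhere, a ratio of 3.91 (2.21 to 6.93). With other chromosomes weighted to the same −log10 p, the ratio over all smoke peaks was 2.505. Copy number of the cell line and the control signal were not measured here, and their part in the result was not tested.

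The 41 smoke peaks were spread along chromosome 20, in 12 windows of 5 Mb, with at most 9 in 1 window, and the 39 air peaks also in 12. Inside protein-coding genes lay 18 of the smoke and 14 of the air peaks. Besides MACROD2 and STK4, smoke peaks lay in the genes of the phospholipases PLCB1 (638 bp) and PLCB4 (713 bp), in BTBD3 (536 bp), which also had 4 wide peaks as its nearest protein-coding gene, in the protease gene TASP1 (564 bp), in PTPRT, a receptor phosphatase (511 bp), and in the nuclear receptor coactivator gene NCOA3 (505 bp). PLCB4, TASP1 and PTPRT also held wide air peaks, at other positions. Apart from MACROD2 and STK4, naming here followed the values. A q of 0.05 or lower was listed for 23 of the 41 smoke and 24 of the 39 air peaks, and median width was 589 bp in smoke and 556 bp in air.

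Chromosome X was the low extreme in smoke, with 5 of 618 peaks wide (0.809%, 0.346 to 1.88), and 30 of 658 in air (4.56%, 3.21 to 6.43). Chromosome 8 was high in both, with 5.29% wide in smoke (4.24 to 6.58) and 9.83% in air (8.499 to 11.4). On the same scale as above, common pairs made up 94.3% of peaks on X and 67.3% on 8 in smoke, and 93.2% and 62.4% in air. Set against the rest of their list, 4 chromosomes in smoke and 2 in air had a higher share with an interval that left out 0. Those with a lower share numbered 6 and 4. Chromosome 8 was above in both lists, and chromosomes 2, 18 and X were below in both.

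**Figure D4:**
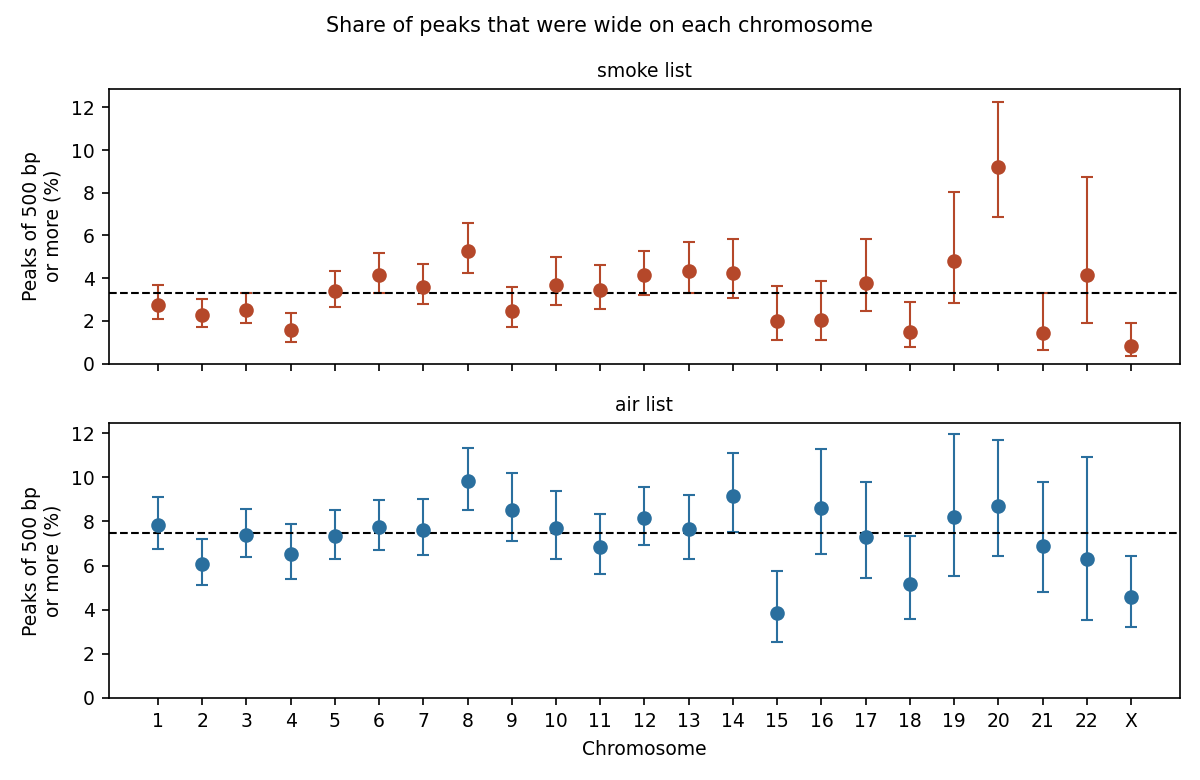
Percentage of peaks that were wide (y axes, from 0) on each chromosome (x axis), smoke on top and air underneath; points carry 95% Wilson intervals and dashed lines give the share over the whole list. In smoke chromosome 20 stands at 9.21% above a line at 3.31%; in air it is 8.71% beside a line at 7.48%.

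Almost no wide peak had a partner in the other library. A peak of the other list was overlapped by 22 wide smoke peaks, 2.77% (1.84 to 4.16), against 1.54% of narrow ones and 1.58% of the list. In air 57 wide peaks overlapped a smoke peak, 2.82% (2.18 to 3.64), against 1.29% of narrow ones and 1.41% of the list. A wider peak meets more by its width alone, so the summits were compared as well. A summit of the other list lay within 500 bp of 27 wide smoke summits, 3.40% against 2.25% of narrow ones (2.29% of the list), a difference of 1.15 points (0.0800 to 2.67). It lay within 500 bp of 57 wide air summits, 2.82% against 1.97% of narrow ones (2.04% of the list), a difference of 0.848 points (0.185 to 1.68). Within 2 kb the differences were 1.94 points in smoke (0.194 to 4.08) and 1.25 in air (0.198 to 2.46). The smoke interval within 500 bp came to include 0 without chromosome 20 (-0.0225 to 2.61) and at 400 bp (-0.118 to 1.30).

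At a shorter range the excess was not seen beyond counting error. With every peak cut to 200 bp around its summit, 1.39% of wide and 1.07% of narrow smoke peaks had a partner, a difference of 0.317 points (-0.310 to 1.40). In air 0.891% of wide and 0.964% of narrow peaks had one, a difference of -0.0738 points (-0.425 to 0.452), so the direction in air turned round. With summits within 200 bp of each other the differences were 0.313 points in smoke (-0.314 to 1.40) and -0.0778 points in air (-0.429 to 0.448).

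**Figure D5:**
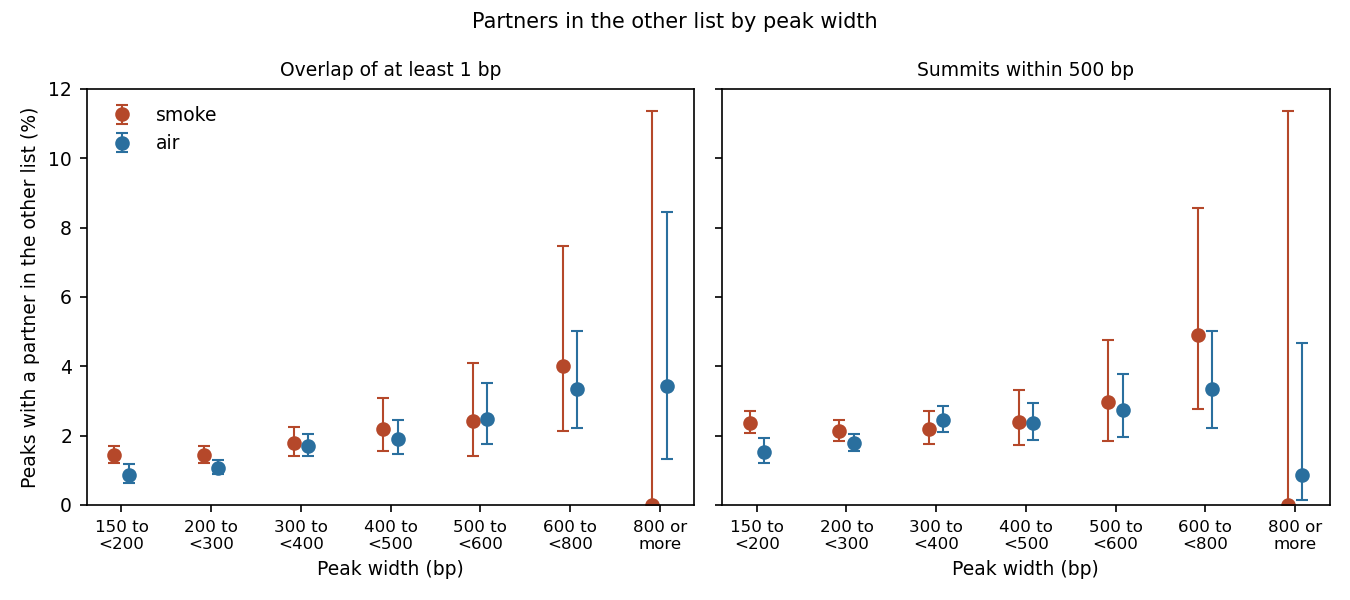
Percentage of peaks with a partner in the other list (y axis, from 0) by class of peak width (x axis, bp), by overlap of at least 1 bp (left panel) and by summits within 500 bp (right panel), smoke points left of air points with 95% Wilson intervals. In the left panel smoke is 1.44% in both classes under 300 bp and 4.02% at 600 bp to under 800 bp, and air is 0.872% in the narrowest and 3.42% in the widest class; of the 30 smoke peaks of 800 bp or more none had a partner.

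The partner was wide itself for 1 of 22 wide smoke peaks and 1 of 57 wide air peaks. Wide peaks made up 7.48% of the air list and 3.31% of the smoke list. Counts of 1 are too few to set apart from those shares. The partners of wide smoke peaks had a median width of 273 bp, against 277 bp for the air list, and those of wide air peaks 232 bp, against 225 bp for the smoke list. The partner lay wholly inside the wide peak in 8 of 22 cases in smoke and 28 of 57 in air. Summits of partners were a median of 204 bp apart for wide smoke peaks and 278 bp for wide air peaks, and within 100 bp in 7 and 6 cases. Partners of wide smoke peaks were found in 4 protein-coding genes, which were CNTN5, FREM2, an extracellular matrix protein, DCAF5, a ubiquitin ligase adaptor, and ZNF529, a zinc finger gene. Of the wide air peaks with a partner, 23 lay in protein-coding genes. FREM2 and DCAF5 were picked once their values were known.

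The 1 pair that was wide in both libraries lay in ZNF529 on chromosome 19. The smoke peak ran from 36557043 to 36557606 (564 bp, fold 3.82) and the air peak from 36557165 to 36557853 (689 bp, fold 3.96). They shared 442 bp, but their summits were 468 bp apart. The names of both lists carry the same control code, so the lists may share a control, and its part in this pair was not tested.

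The spacing of wide peaks differed from that of narrow ones beyond counting error in smoke within 10 kb, where fewer wide peaks had a neighbour. Another peak of the same list lay within 10 kb of 16.8% of wide smoke peaks (14.3 to 19.5), against 20.01% of narrow ones and 19.9% of the list, a difference of -3.24 points (-5.73 to -0.433). In air it was 23.3% (21.5 to 25.2), against 22.03% of narrow ones and 22.1% of the list, a difference of 1.28 points (-0.585 to 3.24). The threshold moved both calls: at 400 bp the difference was -1.20 points in smoke (-2.85 to 0.550) and 1.47 points in air (0.197 to 2.77). Within 2 kb the shares were 3.53% of wide and 4.48% of narrow smoke peaks (4.45% of the list), and 4.26% of wide and 4.49% of narrow air peaks (4.47% of the list). The next wide peak was a median of 938 kb away in smoke and 361 kb in air, with air holding more of them. Wide peaks within 10 kb of another wide peak numbered 2 in smoke and 54 in air.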

How the data were processed

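Chromatin of 1 smoke and 1 air library was immunoprecipitated and sequenced. Each library came with a peak list in the narrowPeak layout; the input has no file among those analysed here. The submitters' processing notes name Bowtie2, MACS and MACS2, and the builds hg38 and mm10; which did what, with which versions and settings, is not given in the sources used here. Deposited values were a score, the fold enrichment, −log10 p and −log10 q of the authors' peak caller, and positions and summits. Peaks carry numbers up to 134206 in smoke and 230215 in air, so each deposited list is a selection, made in a way that no label states. Read depth is unknown.

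Peaks were split at 500 bp and placed by summit on 59098 RefSeq genes of GRCh38.p14 (19974 protein-coding), as gene spans without exons; gene ends and start sites were counted within 1 kb (Python 3.11.15, pandas 2.3.3, numpy 2.4.6, statsmodels 0.14.6). Intervals are 95% Wilson for shares, Newcombe for differences and log-normal for ratios, and cover counting error only. No test was made, since peaks of 1 library are not replicates. Placing was tested on simulated data. The members, gene lists and tests were chosen with earlier results of these data known. Genes were named by rule: those at the 10 widest peaks and at the highest −log10 q of each list, at pairs wide in both, at up to 10 gene-end peaks per list, the 5 genes with most wide summits, and up to 4 genes per gene list; others are marked where named. Sequence under the peaks was not analysed here beyond the promoter windows. A gene list and some genes of other lists are not reported here.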

Additional observations from a re-analysis of the deposited data

How the results depend on the processing

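Intervals cover counting error only, depth is unknown, and no replicate exists. No paired analysis was possible because each group has 1 library; none could be left out either. Of 300 values under alternatives, 246 stayed, 49 moved and 5 reversed; a value counts as staying while it lies inside the interval of the reported one. Of 105 alternatives to a difference or ratio whose interval left out no difference, 40 had one that included it, 7 of them for smoke summits with a partner and 5 each for smoke ends of any gene and smoke peaks within 10 kb. Of 99 alternatives to the others, 5 left it out. The comparison for long noncoding RNA genes and alternatives on start sites, on single chromosomes and without chromosome 20 were chosen after seeing the data. Shares at 1000 bp (5 smoke and 9 air peaks) were not computed.

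The threshold set the number of wide peaks, of their host genes and of pairs wide in both lists. At 400 bp there were 2248 smoke and 5079 air peaks, 833 and 1581 hosts and 13 pairs; at 375 bp (2.5 times the narrowest peak) 2926 and 6317, 1050 and 1864, and 17; at 750 bp 53 and 173, 27 and 60, and 0; at 1000 bp 5 and 9, 2 and 3, and 0. With −log10 q of at least 2 they were 137 and 420, 63 and 176, and 0. The widest 5% gave 1200 smoke peaks and 2 pairs.

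At 750 bp the difference between wide and narrow was -3.13 points for smoke ends of any gene and -1.47 for air summits with a partner, both reversed. There it was 6.39 points in smoke and -8.65 in air inside protein-coding genes, -1.37 in air inside any gene, and 1.01 at air start sites. Inside long noncoding RNA genes alone it was -4.52 in smoke and 8.45 in air, with 0.597 in air at 400 bp. With −log10 q of at least 2 it was 0.362 points for smoke peaks within 10 kb (reversed), 0.509 for air overlaps and 1.18 for air peaks within 2 kb. Air partners reversed at -0.0738 points with peaks cut to 200 bp, and at -0.0778 with summits within 200 bp. The causes were not tested.

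The chromosome 20 ratio in smoke was 1.88 at 400 bp, 1.74 at 375 bp, 4.32 at 750 bp, 3.91 on common pairs of fold and p and 1.29 on the rest; in air it was 0.861 with −log10 q of at least 2. Chromosome 8 had ratios of 1.30 in smoke and 1.97 in air at 750 bp, 1.02 and 1.13 with −log10 q of at least 2, and 1.10 in air at 375 bp. Chromosome X in smoke had 0 wide peaks at 750 bp and with −log10 q of at least 2.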

Other observations

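Wide air peaks at start sites included 12 long noncoding RNA genes among 29 genes, and wide smoke peaks 8 among 21. Protein-coding genes were 17 of the 29 in air and 13 of the 21 in smoke. Of all 27195 genes with a promoter window, 15812 were protein-coding. The protein-coding share in air was close to that over all these genes. Whether the shares differ was not tested, and the counts are a description. Of the 12 promoter windows touched in air, 8 belonged to noncoding genes, and no share over all windows is given beside this count. TODL held the widest such peak, 918 bp, with its summit 169 bp from the start, and TBX3-AS1, the antisense partner of the developmental factor TBX3, a peak of 796 bp at 159 bp. ARPP21-AS1 had a summit 7 bp from its start. Strand is unknown in these data, so a promoter of an antisense gene cannot be told apart from that of a partner close by. These genes were chosen after their values were seen.

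Windows of 5 Mb with at least 20 peaks and no wide peak were 32.1% of 495 in smoke and 6.76% of 518 in air. The highest share of wide peaks was 6 of 34 in smoke, on chromosome 5 from 135 to 140 Mb, the window of KIF20A and BRD8. In air it was 9 of 46, on chromosome 8 from 120 to 125 Mb.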
